A study of Homo sapiens with 2 samples.

Results

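The 10 genes described here encode the enzymes that make and break down prostaglandins and a pair of receptors for prostaglandin E2. They are PLA2G4A, PTGS1, PTGS2, PTGES, PTGES2, PTGES3, PTGER2, PTGER4, HPGD and PTGR1, were taken by symbol, and make up 10 of the 20985 genes in the deposited table. The study compared HCC827 ZDR3 cells, a gefitinib-resistant line, with parental HCC827 cells, an established human lung adenocarcinoma line with an activating EGFR mutation. Gefitinib, an inhibitor of the EGFR kinase, was given at 10 nM for 1 month and raised 3-fold each month until the cells grew at 1 µM like the parental line, and the protocol then refers to individual colonies. Whether ZDR3 grew from a single colony is not given in the labels used here. Whether the drug was still present at harvest is not in the labels, so resistance and exposure to the drug cannot be told apart. Polyadenylated RNA was sequenced from 1 ZDR3 library and 1 parental library. There is thus no replicate check, no test was made, and each difference is one between these 2 libraries.

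Prostaglandins are made from arachidonate, a fatty acid that the cytosolic phospholipase A2 PLA2G4A cuts from membrane phospholipids. The cyclooxygenases PTGS1 (COX-1) and PTGS2 (COX-2) turn it into the intermediate prostaglandin H2, and terminal synthases convert that into the separate prostaglandins. In many lung adenocarcinomas prostaglandin E2 is a main product. It acts through the receptors EP2 and EP4, which raise cyclic AMP, and HPGD starts its inactivation.

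The first steps of the route had the largest differences. PTGS2, PLA2G4A and PTGS1 were each about an order of magnitude or more lower in the ZDR3 library. PTGES, the inducible prostaglandin E synthase, and HPGD, the degrading enzyme, were lower by a smaller factor, while PTGES3 and PTGR1 were at nearly the same level in both libraries. The receptor genes PTGER2 and PTGER4 had the lowest levels per kb of exon. Fewer cells that express a gene and less RNA per cell cannot be told apart in such libraries.

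Because PTGS2, PLA2G4A and PTGS1 had the largest differences, the 250 bases before the first RefSeq start listed for each are shown 5′ to 3′ from build GRCh38.p14. The windows lie at chr1:186680424-186680673 (minus strand), chr1:186828699-186828948 (plus strand) and chr9:122370283-122370532 (plus strand). Capitals mark matches, on either strand, to the C/EBP motif TTNNGNAA, to the core of the cyclic AMP response element, TGACG, and to the TATA motif TATAAA.

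PTGS2: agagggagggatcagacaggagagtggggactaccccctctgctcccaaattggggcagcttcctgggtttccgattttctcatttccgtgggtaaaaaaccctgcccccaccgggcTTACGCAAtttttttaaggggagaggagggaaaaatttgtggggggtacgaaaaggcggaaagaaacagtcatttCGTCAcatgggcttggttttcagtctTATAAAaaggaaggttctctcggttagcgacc
PLA2G4A: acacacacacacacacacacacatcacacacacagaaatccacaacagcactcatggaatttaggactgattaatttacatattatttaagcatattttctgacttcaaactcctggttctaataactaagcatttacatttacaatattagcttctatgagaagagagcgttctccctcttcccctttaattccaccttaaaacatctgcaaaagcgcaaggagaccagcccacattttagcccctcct
PTGS1: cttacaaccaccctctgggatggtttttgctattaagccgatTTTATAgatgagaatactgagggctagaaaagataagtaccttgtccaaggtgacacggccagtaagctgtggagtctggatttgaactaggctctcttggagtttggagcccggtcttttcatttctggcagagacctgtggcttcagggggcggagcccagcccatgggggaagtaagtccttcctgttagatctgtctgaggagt

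In the PTGS2 window the C/EBP match began 133 bases before the start, the TGACG match 58 bases and the TATA match 32 bases before it, and none of them overlapped. The PLA2G4A window held none of these 3 motifs and had the lowest GC content of the prostaglandin gene windows, 38.8%, against a median of 58.0% over all 35116 RefSeq windows of this length. The PTGS1 window held a TATA match on the reverse strand that began 208 bases before the start. RefSeq lists more than 1 start for 3 of the 10 genes, which gives 14 windows in all. Of the 14 windows 4 held TGACG, 3 held TTNNGNAA and 2 held TATAAA, against 21.2%, 33.2% and 10.7% of all windows. None of the 14 held the AP-1 motif TGANTCA, which occurs in 6.57% of all windows. The NF-kB consensus GGGRNNYYCC (R is A or G, Y is C or T) was found in 4 of the 14 and in 9.96% of all windows. None of the 3 windows printed held an exact match to it, and sites that depart from these letters were not counted. The GC box GGGCGG was in 10 of the 14 and in 42.6% of all windows, the EGR motif GCGNGGGCG in 3 and in 8.41%, the E-box CACGTG in 1 and in 6.34%, and the full response element TGACGTCA, which contains TGACG, in 0 and in 1.65%. All motifs were sought on both strands. A match is a description of the letters, not a site of binding.

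Levels are given in normalised reads, where 1 unit stands for 138 reads in the ZDR3 and 143 reads in the parental library, and the gene reads summed to 243549870 in the ZDR3 and 257192607 in the parental library. The deposited values are not divided by gene length, so levels of different genes are set side by side only per kb of exon. The log2 ratio is ZDR3 over parental after 1 was added to both levels, and a gene counted as expressed when its level reached 1 in either library. A gene is called lower or higher where it differs by 2-fold or more on this scale. Of the 10 genes 9 were expressed, PTGER2 being the exception, and 5 of these 9 were called lower and 0 called higher in the ZDR3 library. Among all 13777 expressed genes 9.68% were called lower and 10.6% called higher. The median log2 ratio of the 9 expressed genes was -1.12, against -0.03 for all expressed genes. PTGER4 reached the minimum level in the parental library only, and over all 10 genes, with no minimum, the median was -0.84. A limit of 8-fold, set after the values were seen, was passed downwards by 3 of the 9 and by 1.62% of all expressed genes.

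**Figure D1:**
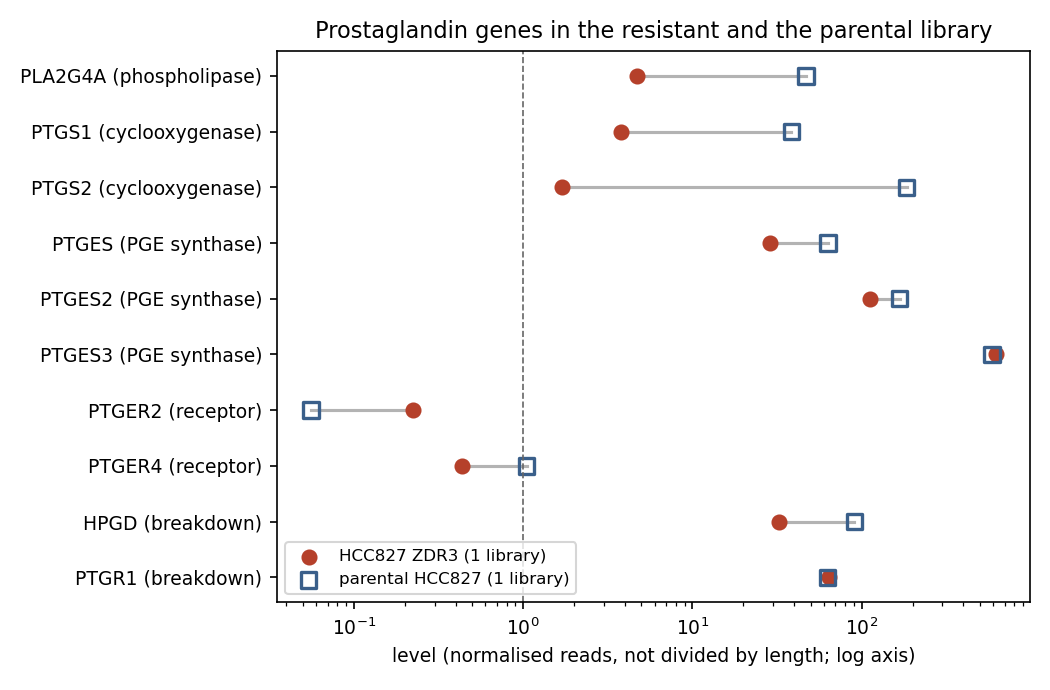
Level of each of the 10 genes in normalised reads on a log axis, in the HCC827 ZDR3 library (filled circles) and the parental HCC827 library (open squares); each symbol is 1 library and the dashed line is the level of 1 used to call a gene expressed. PTGS2 has the longest gap, with 1.71 in ZDR3 and 184 in parental cells, while the symbols of PTGES3 and PTGR1 lie almost on each other.

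PTGS2 (ENSG00000073756), the cyclooxygenase that growth factors, cytokines and tumour promoters induce, had 235 reads in the ZDR3 and 26339 reads in the parental library. These correspond to levels of 1.71 in ZDR3 and 184 in parental cells and to a log2 ratio of -6.10. The unadjusted level was 108-fold lower in ZDR3, with an exact 95% binomial counting interval of 94.9 to 123. Such intervals cover counting error only, since the reads carry no molecular identifiers and cannot be taken as independent, and the spread between cultures is unknown. In the order of log2 ratios, counted from the lowest, PTGS2 stood at place 27 of the 13777 expressed genes.

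PTGS1 (ENSG00000095303), the cyclooxygenase that most tissues express without induction, had 520 reads in the ZDR3 and 5506 in the parental library, levels of 3.78 in ZDR3 and 38.5 in parental cells. Its log2 ratio was -3.05, and its unadjusted level was 10.2-fold lower in ZDR3 (9.32 to 11.2). Both cyclooxygenase genes were therefore lower in the resistant library, but by different factors, and their order changed. Per kb of exon PTGS2 was at 0.497 times the level of PTGS1 in the ZDR3 library and at 5.26 times that level in the parental library. The summed level of both per kb was 0.977 in ZDR3 and 41.6 in parental cells.

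PLA2G4A (ENSG00000116711), the calcium-dependent phospholipase that releases arachidonate, had 650 reads in the ZDR3 and 6726 in the parental library, levels of 4.72 in ZDR3 and 47.1 in parental cells. Its log2 ratio was -3.07, with an unadjusted level 9.97-fold lower in ZDR3 (9.19 to 10.8). PLA2G4A and PTGS2 are neighbours on chromosome 1, on opposite strands and 149 kb apart in GENCODE release 29, with 0 genes of the table between them. Of the 10 expressed genes on each side of PTGS2, 2 were called lower, one of them PLA2G4A itself, and 4 higher, with a median log2 ratio of -0.17, so the low ratios of the pair were not seen across their surroundings. RGS2, the next expressed gene beyond PLA2G4A, was at 58.0 in the ZDR3 and 13.1 in the parental library, a log2 ratio of 2.06. RGS2, a regulator of G protein signalling, was picked after its value was seen.

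**Figure D2:**
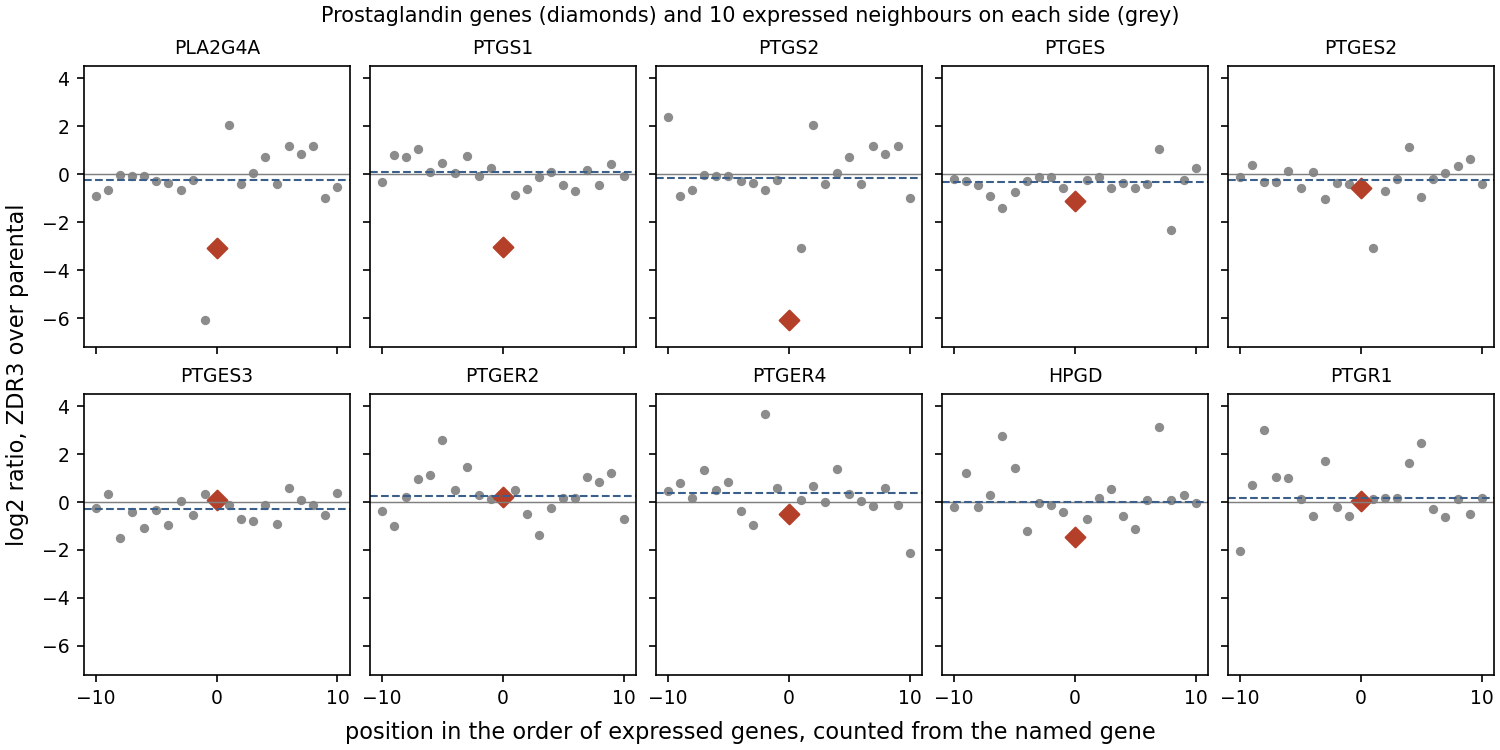
Log2 ratio of ZDR3 over parental for each of the 10 genes (red diamonds) and for the 10 nearest expressed genes on each side (grey points), by their order along the chromosome; the dashed line is the median of the 20 neighbours and the solid line is 0. PTGS2, PLA2G4A and PTGS1 lie far below their neighbours' medians of -0.17, -0.26 and 0.09, and in the panels of PTGS2 and PLA2G4A the lowest neighbour is the partner gene.

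The 3 genes named as prostaglandin E synthases diverged. PTGES (ENSG00000148344), the inducible microsomal enzyme that is usually coupled to PTGS2, had 3956 reads in the ZDR3 and 9076 in the parental library, levels of 28.7 in ZDR3 and 63.5 in parental cells. Its log2 ratio was -1.12 and its unadjusted level was 2.21-fold lower in ZDR3 (2.13 to 2.29). The 20 expressed neighbours of PTGES on chromosome 9 had a median of -0.33, and after subtraction of that median its log2 ratio was -0.79, which is inside the 2-fold limit. PTGES2 (ENSG00000148334), a membrane-associated synthase, was at 113 in the ZDR3 and 168 in the parental library, a log2 ratio of -0.57 and an unadjusted level 1.49-fold lower in ZDR3 (1.46 to 1.52). PTGES3 (ENSG00000110958), known both as the cytosolic synthase and as the HSP90 co-chaperone p23, was at 618 in ZDR3 and 590 in parental cells, with a log2 ratio of 0.07 and an unadjusted ratio of 1.05 (1.04 to 1.06). PTGES3 was also the most abundant of the 10 genes per kb of exon, at 182 in the ZDR3 and 174 in the parental library. The summed level of the 3 synthase genes per kb was similar, at 234 in ZDR3 and 262 in parental cells. PTGES3 made up most of the sum of these 3 genes in both libraries. Per kb, PTGES was at 0.0833 times the level of PTGES3 in ZDR3 and at 0.193 times in parental cells.

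Both receptor genes had few reads. PTGER4 (ENSG00000171522), the gene of EP4, had 60 reads in the ZDR3 and 150 in the parental library, levels of 0.436 in ZDR3 and 1.05 in parental cells. Its unadjusted level was 2.41-fold lower in ZDR3, with an interval of 1.77 to 3.31, but its log2 ratio was only -0.51, since the added unit outweighs so low a level. PTGER4 lies over part of TTC33 on the opposite strand in GENCODE release 29, and whether counting used strand is not given in the sources used here. PTGER2 (ENSG00000125384), the gene of EP2, had 31 reads in the ZDR3 and 8 in the parental library, levels of 0.225 in ZDR3 and 0.0560 in parental cells. That is an unadjusted ratio of 4.02 with a wide counting interval of 1.81 to 10.1, and a log2 ratio of 0.21, at levels under the minimum level in both libraries. The receptor genes thus had unadjusted ratios on opposite sides of 1. Per kb they were the lowest of the 10 genes in both libraries, with PTGER4 at 0.110 and PTGER2 at 0.0911 in ZDR3, and PTGER4 at 0.265 and PTGER2 at 0.0226 in parental cells.

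HPGD (ENSG00000164120), the 15-hydroxyprostaglandin dehydrogenase that opens the breakdown of prostaglandin E2, had 4450 reads in the ZDR3 and 12971 in the parental library, levels of 32.3 in ZDR3 and 90.8 in parental cells. Its log2 ratio was -1.46 and its unadjusted level was 2.81-fold lower in ZDR3 (2.71 to 2.91). Its 20 expressed neighbours on chromosome 4 had a median log2 ratio of 0.00. Since PTGS2 differed by far more, the balance of both genes per kb turned round: HPGD was at 18.05 times the level of PTGS2 in ZDR3 and at 0.469 times in parental cells. PTGR1 (ENSG00000106853), a reductase that acts after HPGD and also on leukotriene B4, was at 64.0 in the ZDR3 and 62.7 in the parental library. The log2 ratio of PTGR1 was 0.03, and the interval of its ratio, 0.991 to 1.05, includes 1. PTGR1 lies over part of ZNF483 on the opposite strand in GENCODE release 29.

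**Figure D3:**
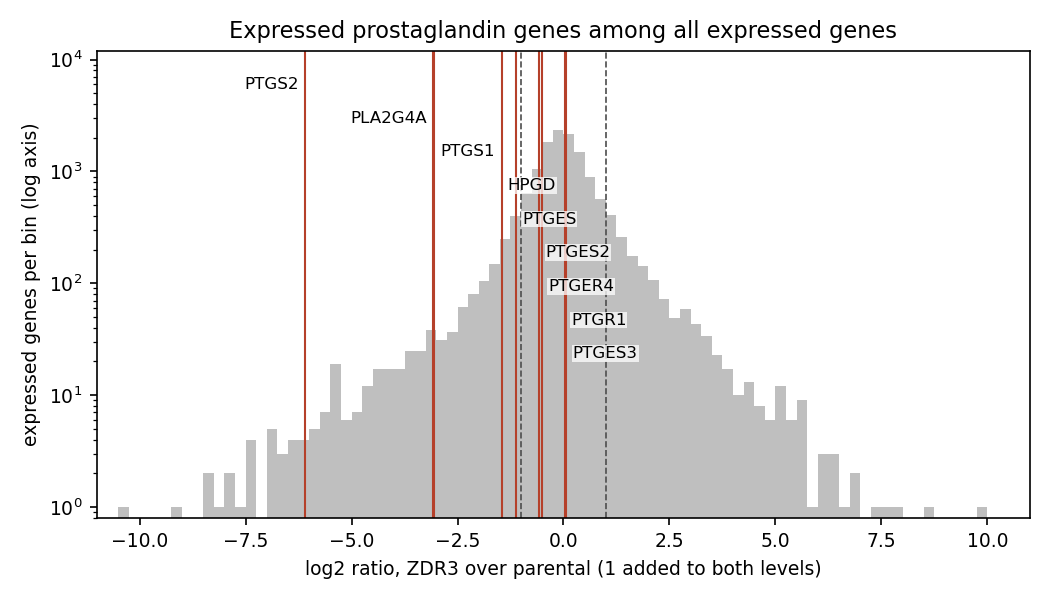
Histogram of the log2 ratio of ZDR3 over parental for all 13777 expressed genes (grey, bins of 0.25, log axis of gene counts), with a red line for each of the 9 expressed prostaglandin genes and dashed lines at 2-fold. PTGS2 stands far out in the lower tail at -6.10, PLA2G4A and PTGS1 together near -3, and PTGR1 and PTGES3 at the centre.

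Ordered by level per kb, PTGES3 and PTGES2 came first in both libraries. In the ZDR3 library PTGR1 (17.0), PTGES (15.2), HPGD (5.85), PLA2G4A (1.64), PTGS1 (0.653) and PTGS2 (0.324) followed. In the parental library the order was PTGS2 (35.0), PTGES (33.5), PTGR1 (16.7), HPGD (16.4), PLA2G4A (16.4) and PTGS1 (6.65). PTGS2 therefore stood at place 8 of 10 in ZDR3 cells and at place 3 in parental cells. With 1 library per line the spread of these levels is unknown, and exon lengths are those of all annotated transcripts joined, so close neighbours in the order cannot be ranked.

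Other genes of the pathway were taken from lists written out by role. Among 21 phospholipase A2 genes, PLA2G4A included, 11 were expressed, of which 5 were called lower and 1 higher, and their median log2 ratio was -0.67. PLA2G16, a calcium-independent phospholipase of lipid droplets and fat tissue, was at 47.5 in the ZDR3 and 219 in the parental library (log2 ratio -2.18). The secreted enzyme gene PLA2G10 had 8 reads in ZDR3 and 446 in parental cells (-1.96), PLA2G4F had 4 reads in ZDR3 and 371 in parental cells (-1.81), and PLA2G4E had 35 reads in ZDR3 and 256 in parental cells (-1.15). PLA2G4C was the one phospholipase gene past 2-fold upwards, at 5.69 in ZDR3 and 1.22 in parental cells (1.59). PLA2G10, PLA2G4F and PLA2G4E reached the minimum level in the parental library only. With 5 in place of 1 added to the levels their log2 ratios were -0.68, -0.60 and -0.37, inside the 2-fold limit. In that setting PLA2G4C was inside the limit too, at 0.78. The count of 5 also includes PLA2G4A itself, so it is given without a reading against the 9.68% of all expressed genes.

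Of 8 genes for synthases of other prostanoids 5 were expressed, of which 2 were called higher and 0 lower in ZDR3, with a median log2 ratio of 0.87. Over all expressed genes 10.6% were called higher and 9.68% lower. Counts as small as these, and those of the receptors below, are given without a reading. AKR1B1, an aldo-keto reductase that can form prostaglandin F2α, was at 89.2 in the ZDR3 and 34.4 in the parental library (1.35). TBXAS1, the thromboxane synthase gene, was at 7.03 in ZDR3 and 2.02 in parental cells (1.41). With 5 in place of 1 added to the levels TBXAS1 was at 0.78, inside the 2-fold limit, and AKR1B1 at 1.26 was not. AKR1C3, another prostaglandin F synthase, was at 42.7 in ZDR3 and 22.9 in parental cells (0.87), inside the 2-fold limit, and shares sequence with its AKR1C relatives, so its reads may be split. The 3 synthase genes that were not expressed had few or no reads. The prostacyclin synthase gene PTGIS had 0 reads in ZDR3 and 5 in parental cells, HPGDS had 0 reads in ZDR3 and 23 in parental cells, and PTGDS had 0 in both. Of the 7 remaining prostanoid receptor genes 3 were expressed, of which 1 was called higher and 0 lower, and PTGDR2 and TBXA2R were both at 0.30. PTGFR, the receptor gene for prostaglandin F2α, had 4218 reads in ZDR3 and 103 in parental cells, levels of 30.7 in ZDR3 and 0.721 in parental cells, a log2 ratio of 4.20. Its unadjusted level was 42.5-fold higher in ZDR3 (35.0 to 52.2). Its level per kb was 6.50 in the ZDR3 library, above that of PTGER4 and PTGER2, and 0.153 in the parental library. Of the 20 expressed neighbours of PTGFR 5 were called higher and 2 lower, and their median was -0.15.

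Among 8 further transport and breakdown genes 2 were called higher and 2 lower, where 10.6% of all expressed genes were called higher and 9.68% lower. SLCO2A1, the prostaglandin uptake transporter, had 46 reads in the ZDR3 and 1626 in the parental library, levels of 0.334 in ZDR3 and 11.4 in parental cells and a log2 ratio of -3.21. The transporter gene SLCO3A1 lay just past the 2-fold limit, at 13.3 in ZDR3 and 27.6 in parental cells, and ABCC4, an exporter of prostaglandin E2, was at 244 in ZDR3 and 155 in parental cells (0.65). With 5 in place of 1 added to the levels SLCO3A1 was at -0.84, inside the limit. The aldo-keto reductase genes AKR1C2 (2.44) and AKR1C1 (1.70) were higher in ZDR3, with the reservation that these near-identical genes can share reads. Arachidonate handling, in contrast, had 0 of 13 expressed genes past 2-fold in either direction and a median of 0.00. The pair with the highest levels, which are not divided by length and so do not rank the genes, were MGLL, a monoacylglycerol lipase that can feed arachidonate to cyclooxygenases, at 1209 in ZDR3 and 664 in parental cells (0.86), and ACSL4, which activates arachidonate for storage in phospholipids, at 859 in ZDR3 and 1017 in parental cells (-0.24).

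**Figure D4:**
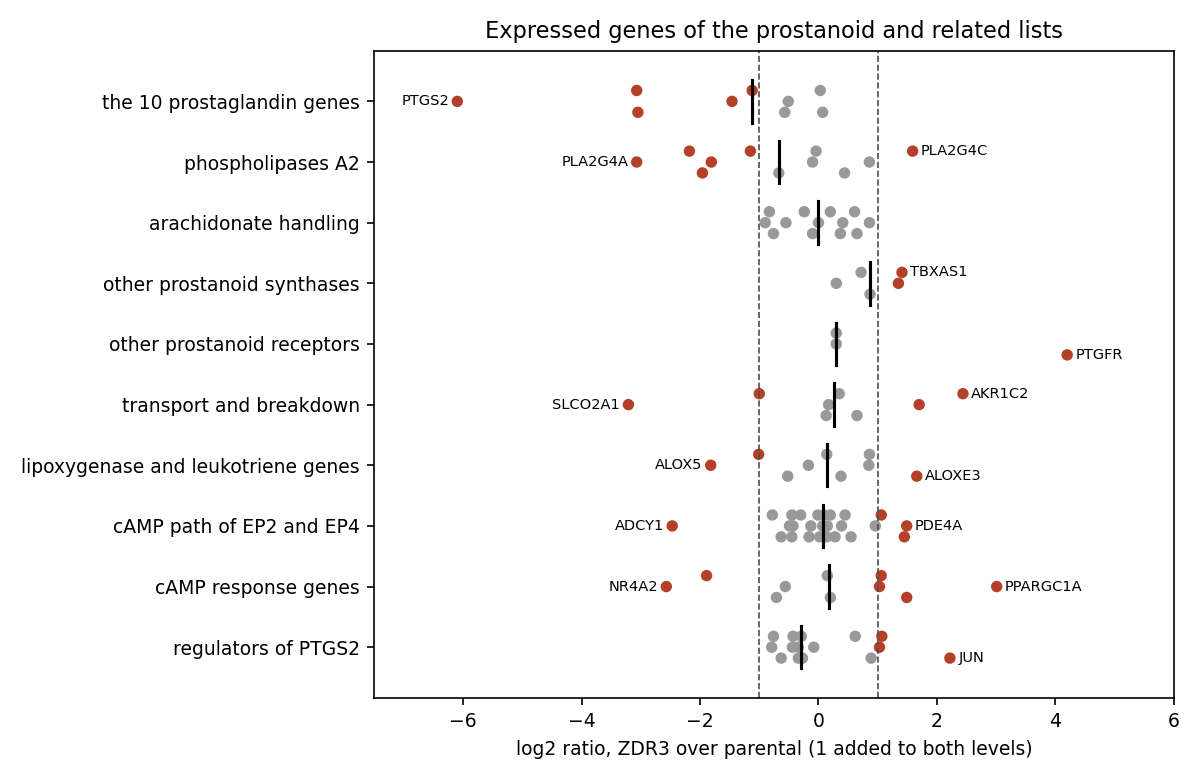
Log2 ratio of ZDR3 over parental for the expressed genes of the 10 prostaglandin genes and of 9 related lists; each point is a gene, red where it is at least 2-fold higher or lower, black bars are medians, and dashed lines mark 2-fold. The lowest and the highest gene of each list are named where past 2-fold, from PTGS2 at -6.10 to PTGFR at 4.20.

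The libraries also differed in epithelial markers, whose part in these results was not tested. All 10 epithelial markers were expressed in both libraries, 9 of the 10 were called lower in ZDR3, and their summed level was 6135 in ZDR3 and 17040 in parental cells. MUC1, a membrane mucin gene, had 1508 reads in ZDR3 and 65352 in parental cells (-5.26), the tight junction gene CLDN7 was at a level of 20.1 in ZDR3 and 641 in parental cells (-4.93), and the E-cadherin gene CDH1 at 146 in ZDR3 and 1271 in parental cells (-3.11). The keratin gene KRT7 was the exception (-0.39). Markers of other cell types that express cyclooxygenases or prostanoid synthases were also measured. Of 14 leukocyte and mast cell markers 4 were expressed, with a summed level of 322 in ZDR3 and 161 in parental cells, nearly all of it CD68, a lysosomal gene that was called higher in ZDR3 (1.04). KIT had 0 reads in ZDR3 and 323 in parental cells (-1.71) and CD14 had 28 reads in ZDR3 and 268 in parental cells (-1.26), both called lower, while CD3E, CPA3 and HDC had 0 reads in both. KIT and CD14 reached the minimum level in the parental library only. Other markers of this list had more reads in ZDR3, at levels under the minimum in both libraries. PTPRC had 32 reads in ZDR3 and 0 in parental cells. FCER1G had 34 reads in ZDR3 and 6 in parental cells, and ITGAM had 59 in ZDR3 and 25 in parental cells. Platelet markers summed to 1.97 in ZDR3 and 3.82 in parental cells, fibroblast markers to 1.96 in ZDR3 and 9.54 in parental cells, most of it COL1A1 (-1.88), and endothelial markers to 0.0945 in ZDR3 and 0.553 in parental cells. Of these defining genes COL3A1 and GP9 had 0 reads in both. The endothelial marker PECAM1 was not found among the genes measured, so the endothelial sum leaves it out.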

How the data were processed

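The deposited table holds 1 log2 value per gene for each of the 2 libraries, and the authors' file calls them RPKM. Back-transformed, the values of the 17049 ZDR3 and 17090 parental genes with 1 to 100000 reads were whole multiples of 1 step per library (100% within 0.1 read), so they are reads times a factor, not divided by length. Genes at the lowest value, 0.9 of a step, were taken as 0 reads (3573 and 3504). The submitters' processing notes name TopHat, with no version, and the build, the counter and the strand setting are not stated in the labels or the file header. Ratios carry exact binomial (Clopper-Pearson) intervals computed with scipy 1.17.1. A gene 2-fold or more apart was called higher or lower. Count models need replicates and were not run. The 10 members and the lists were chosen with earlier results of these data known. All members are named, and of each pathway list up to 6 expressed genes past 2-fold with the largest absolute log2 ratio, or, with none past 2-fold, the 2 with the highest level, while AKR1C3, PTGIS, HPGDS, PTGDS, PTGDR2, TBXA2R, ABCC4, RGS2, CEBPD, ELAVL1 and the cell type markers named were added after their values were seen. Of 130 entries of the pathway lists 129 were found, FAM213B being the one missing. Of the marker lists PECAM1 was not found. Over all lists 2 entries were found by identifier only. Gene order and joined exon lengths come from GENCODE release 29, perhaps not the annotation the authors used, and promoters from RefSeq.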

Additional observations from a re-analysis of the deposited data

How the results depend on the processing

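Planned settings applied to all genes were a pseudocount of 0.1 or 5, 2 rescalings, no minimum level and a minimum of 5. Under these 6 settings the count of prostaglandin genes called lower was 5 or 6 and the count called higher 0. The sixth gene was PTGER4, at -1.10 with a pseudocount of 0.1. The median log2 ratio of the expressed members was -1.02 with a pseudocount of 5, -0.84 without a minimum level and -1.29 with a minimum of 5. Of 124 pathway genes outside the 10, 95 were expressed, of which 16 were called higher and 11 lower. Among all expressed genes 10.6% were called higher and 9.68% lower. With a pseudocount of 5 the pathway counts were 9 higher and 5 lower, and with a minimum of 5 the count lower was 7. The rescalings moved unadjusted log2 ratios by 0.034 or 0.025, which put LTA4H and SLCO3A1 inside the 2-fold limit. A further planned setting, for the 10 genes only, subtracted the neighbours' median. There PTGES was at -0.79, inside the 2-fold limit, and so left the count called lower. The small ratios of PTGER2 and PTGR1 moved to -0.04 and -0.12. Over all settings, single pathway genes lost a call 17 times, gained one 5 times and kept their side of the limit 534 times. These totals leave out genes dropped by the minimum of 5, under which 81 of the 95 expressed pathway genes remained. No called gene among the pathway genes or the 10 changed direction. With 1 library per line no library could be left out. No paired analysis was possible because each line has 1 library. Depth limits mainly PTGER2, with 31 reads in ZDR3 and 8 in parental cells.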

Other observations

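The lipoxygenase branch uses the same arachidonate to make leukotrienes. Of its 9 expressed genes 2 were called lower and 1 higher in the ZDR3 library. Among all expressed genes these shares were 9.68% and 10.6%, and so small a count is given without a reading. ALOX5, the 5-lipoxygenase gene, was at 37.3 in ZDR3 and 134 in parental cells (log2 ratio -1.82), and LTA4H, which makes leukotriene B4, at 178 in ZDR3 and 361 in parental cells (-1.01), just past the 2-fold limit. ALOXE3, an epidermal lipoxygenase gene, was at 9.34 in ZDR3 and 2.27 in parental cells (1.66).

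Downstream of EP2 and EP4, 21 of 25 expressed genes of the cyclic AMP path were within 2-fold, with a median log2 ratio of 0.07. The exceptions were the phosphodiesterase genes PDE4A (1.49) and PDE4D (1.06), the kinase subunit gene PRKAR2B (1.45) and the cyclase gene ADCY1 (-2.47, with 10 reads in ZDR3 and 706 in parental cells). With 5 in place of 1 added to the levels, PDE4D (0.96), PRKAR2B (0.49) and ADCY1 (-0.97) were inside the 2-fold limit and PDE4A (1.44) was not. PDE4A has a neighbourhood of higher ratios, with 14 of 20 neighbours called higher and a median of 1.26. Genes known to respond to cyclic AMP went both ways. NR4A2 was at 1.26 in ZDR3 and 12.5 in parental cells (-2.57) and NR4A1 at 4.48 in ZDR3 and 19.4 in parental cells (-1.89). Of 20 expressed neighbours each, 7 of NR4A2 (median -0.79) and 8 of NR4A1 (median -0.52) were called lower. Higher in ZDR3 were SIK1, at 61.1 in ZDR3 and 21.1 in parental cells (1.49), and PCK1, with 159 reads in ZDR3 and 8 in parental cells (1.03). With 5 in place of 1 added to the levels PCK1 was at 0.28, inside the 2-fold limit. PPARGC1A had 972 reads in ZDR3 and 0 in parental cells, at least 336-fold higher against a floor of 3 reads in the parental library.

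Among 15 expressed genes known to control PTGS2, 0 were called lower and 3 higher, where 9.68% of all expressed genes were called lower and 10.6% higher. The list was not split by whether a gene raises or lowers PTGS2, so these counts are given without a reading. The 3 were JUN at 232 in ZDR3 and 49.1 in parental cells (2.22), EGR1 (1.07) and HIF1A (1.03). With 5 in place of 1 added to the levels EGR1 was at 0.94, inside the 2-fold limit. The other 12 lay between CEBPD (-0.79) and ELAVL1 (0.89), and the median of the 15 was -0.29. JUN and ELAVL1 have neighbourhoods of higher ratios. Of 20 expressed neighbours each, 10 of JUN (median 0.94) and 15 of ELAVL1 (median 1.46) were called higher.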
